A study of Mus musculus with 4 samples.

Results

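The genes of 8 inhibitory receptors, Pdcd1, Lag3, Havcr2, Tigit, Ctla4, Cd160, Cd244a and Cd101, were followed in T cells from the bone marrow of transplanted mice. They were taken by name from the 32285 genes of the deposited RNA table, and the peaks that overlap each gene or lie within 10 kb of it were taken from the deposited chromatin table, 90 peaks in all. C57Bl/6 recipients had been given 5000000 marrow cells together with 500000 CD4 and 500000 CD8 T cells of C3H.SW donors. In the PT-Cy group the transplant was followed by 50 mg/kg cyclophosphamide on days 3 and 4, and in the alloBMT group it was given without the drug. T cells were sorted by flow cytometry from marrow 14 days after transplantation, each sample a pool of 4 mice. The 10x Multiome kit reads gene RNA and, by ATAC, open chromatin in 1 and the same nucleus. That gave 1 library per group and assay, so no difference between PT-Cy and alloBMT could be tested against the spread between mice, and the intervals given here are 95% intervals for counting error. The sources used here do not give age or sex of the mice, nor whether sorted cells came from donor or host.

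Inhibitory receptors are surface proteins that activated T cells put on and that dampen signalling from the T cell receptor when they meet their ligands. T cells under lasting antigen stimulation, as in chronic infection, in tumours or against host tissue after an allogeneic transplant, often carry several of them at once, a hallmark of exhaustion, and regulatory T cells carry CTLA-4 constitutively. Cyclophosphamide given early after transplantation is used to prevent graft-versus-host disease and kills T cells that divide in response to host antigen.

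RNA was read in the CD4 set, which has 284 PT-Cy and 926 alloBMT cells with 1264107 and 3027967 UMIs (unique molecules). The median PT-Cy cell had 3889 UMIs and the median alloBMT cell 2750. For chromatin there was also a CD8 set of 512 PT-Cy and 1865 alloBMT cells, whose RNA was not analysed here. ATAC depth ran the other way, with medians of 4090.5 counts in PT-Cy and 6874 in alloBMT cells of the CD4 set, and 4615 and 7841 in the CD8 set. A Cd4 UMI was found in 284 of 284 PT-Cy and 926 of 926 alloBMT cells of the CD4 set and a Cd8a UMI in 0 of either, so these markers reflect how the set was chosen. The deposited CD4 clusters divided the libraries: PT-Cy and alloBMT had 4 and 374 cells in cluster 0, 0 and 320 in cluster 1, 238 and 42 in cluster 2, 11 and 156 in cluster 3, and 31 and 34 in cluster 4. Cluster 2 is rich in dividing cells and cluster 4 in Foxp3, the lineage factor of regulatory T cells, with 207 CPM in PT-Cy and 240.4 in alloBMT (CPM, counts scaled to one same total in each library or cluster). RNA of other cells differed between the libraries. The 8 myeloid markers summed to 181 CPM in PT-Cy and 36.0 in alloBMT, the 6 erythroid markers to 853 and 211, the 6 NK cell markers to 134 and 186 (67.2 and 24.1 without Eomes, which is also a T cell factor), and the 6 B cell markers to 12.7 and 1.98. The 5 markers of dividing cells summed to 2028 CPM in PT-Cy and 516 in alloBMT. Cd8b1, a chain of the CD8 co-receptor, had 131 CPM in PT-Cy and 100.1 in alloBMT. The part these RNAs have in the receptor values was not tested, beyond the values without such cells given below.

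The stretch of 250 bases before the start site is shown for 4 of the receptors, because their start-site peaks carry the chromatin results given further down: lower in PT-Cy CD4 cells at Pdcd1 and Ctla4, lower in PT-Cy CD8 cells at Cd244a, and little different in either at Tigit. RefSeq entries (GRCm38.p6) were found for 7 of the 8 genes. Sequences run 5′ to 3′ on the strand of the gene and end at the base before the start site of the RefSeq promoter entry. For Tigit and Cd244a that start site lies inside the gene span given below, so their stretches are part of the gene as annotated. Capitals mark matches, on either strand, to letters of 6 motifs: NFAT (GGAAA), AP-1 (TGANTCA), TCF (CTTTGNT), NR4A (AAAGGTCA), RUNX (TGNGGT) and T-box (AGGTGTNA).
Pdcd1, chr1:94052554-94052803, minus strand: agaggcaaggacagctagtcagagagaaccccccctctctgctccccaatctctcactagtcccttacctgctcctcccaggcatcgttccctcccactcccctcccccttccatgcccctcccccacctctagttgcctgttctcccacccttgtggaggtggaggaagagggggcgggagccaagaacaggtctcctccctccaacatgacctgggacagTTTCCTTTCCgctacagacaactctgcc
Ctla4, chr1:60908775-60909024, plus strand: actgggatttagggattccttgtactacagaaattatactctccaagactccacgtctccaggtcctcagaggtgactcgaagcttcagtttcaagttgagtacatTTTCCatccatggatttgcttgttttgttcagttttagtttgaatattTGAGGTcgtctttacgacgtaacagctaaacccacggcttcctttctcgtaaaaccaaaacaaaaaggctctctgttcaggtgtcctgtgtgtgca
Cd244a, chr1:171558943-171559192, plus strand: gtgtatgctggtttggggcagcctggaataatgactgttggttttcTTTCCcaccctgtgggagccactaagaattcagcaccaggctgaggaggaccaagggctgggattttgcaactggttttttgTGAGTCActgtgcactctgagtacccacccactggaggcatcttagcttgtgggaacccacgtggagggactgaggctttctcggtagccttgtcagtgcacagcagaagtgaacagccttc
Tigit, chr16:43664185-43664434, minus strand: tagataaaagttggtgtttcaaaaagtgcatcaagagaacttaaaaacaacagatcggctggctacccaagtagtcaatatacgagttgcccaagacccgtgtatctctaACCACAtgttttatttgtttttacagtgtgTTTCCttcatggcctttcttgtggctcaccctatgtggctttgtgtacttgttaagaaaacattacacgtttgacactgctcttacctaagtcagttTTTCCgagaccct
The deposited start-site peaks covered 250 of 250 bases of these stretches for Ctla4, Cd244a and Tigit and 226 for Pdcd1. Pdcd1 held 2 NFAT matches side by side, from 28 to 24 and from 23 to 19 bases before the start site. Ctla4 held 1 NFAT and 1 RUNX match, Tigit 2 NFAT and 1 RUNX match, and Cd244a 1 NFAT and 1 AP-1 match, its AP-1 letters from 122 to 116 bases before the start site. Such letters are common: of 32817 stretches of the same length before mouse start sites, 55.6% held the NFAT letters, 40.1% the RUNX letters, 16.0% the TCF, 6.75% the AP-1, 2.68% the T-box and 1.34% the NR4A letters. A match of letters does not show a binding site.

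Receptor RNA was lower in PT-Cy than in alloBMT CD4 cells for each of the 8 genes by its point value, and Cd101 alone had an interval that reached 0. The 8 genes together had 734 UMIs (581 CPM) in PT-Cy and 4111 UMIs (1358 CPM) in alloBMT, a log2 ratio of -1.23 (-1.34 to -1.11). All 8 passed the minimum of 100 UMIs over both libraries. At least 2-fold lower were 4 of them, Pdcd1, Lag3, Tigit and Cd244a, and 0 were 2-fold higher, beside 2.88% of 6285 measured genes that were 2-fold lower and 4.93% that were 2-fold higher. The median log2 ratio of the 8 was -1.12, against 0.025 over all measured genes, of which 47.5% were lower in PT-Cy at all. Scaling the libraries by edgeR's TMM factors over all genes would shift every ratio by -0.13. Leaving out cells that carried a UMI of a myeloid, B or NK cell marker other than Eomes kept 163 PT-Cy and 795 alloBMT cells. The summed ratio was then -1.30 (-1.47 to -1.14), and 6 of the 7 receptors measured were 2-fold lower. The share over all genes was not computed for these cells.

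Lag3 differed most. Gene positions given here are those of RefSeq on GRCm38.p6. LAG3 binds MHC class II and other ligands and is encoded on chromosome 6 from 124904359 to 124912434. It had 43 UMIs (34.0 CPM) in PT-Cy and 793 UMIs (262 CPM) in alloBMT, 7.70-fold lower in PT-Cy (5.66 to 10.7). Among the receptors of B7-family ligands, Pdcd1 (chromosome 1, 94038305 to 94052553), which encodes PD1, had 91 UMIs (72.0 CPM) in PT-Cy and 676 (223 CPM) in alloBMT, a log2 ratio of -1.63 (-1.96 to -1.32). Ctla4 (chromosome 1, 60909025 to 60915832), whose protein competes with CD28 for CD80 and CD86, had the smallest difference among the receptors with more than 200 UMIs. Its 347 UMIs (275 CPM) in PT-Cy stood against 1349 (446 CPM) in alloBMT, a log2 ratio of -0.70 (-0.87 to -0.53), with intervals of Ctla4 and Pdcd1 that did not overlap.

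Tigit (chromosome 16, 43626137 to 43665125) encodes a receptor of nectin-family ligands such as CD155 and overlaps the end of Zbtb20. It had 45 UMIs (35.6 CPM) in PT-Cy and 357 (118 CPM) in alloBMT, a log2 ratio of -1.73 (-2.21 to -1.28). Havcr2 (chromosome 11, 46454931 to 46481255) encodes TIM3, which binds galectin-9 and CEACAM1 among others. It had 121 UMIs (95.7 CPM) in PT-Cy and 571 (189 CPM) in alloBMT, and its ratio of -0.98 (-1.27 to -0.69) lay just short of 2-fold; it passed 2-fold with TMM and with DESeq2 scaling. Leaving out cells that carried a Cd8b1 UMI kept 193 of 284 PT-Cy and 731 of 926 alloBMT cells. In these the Havcr2 ratio was -1.62 (-2.07 to -1.19) and that of Pdcd1 was -2.07 (-2.55 to -1.62). The share over all genes was not computed for them.

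The remaining 3 receptors were sparse. Cd244a (chromosome 1, 171558718 to 171585316) encodes 2B4, a SLAM-family receptor of CD48, and overlaps the long non-coding gene Gm35200, so reads there may be shared. It had 24 UMIs (19.0 CPM) in PT-Cy and 137 (45.2 CPM) in alloBMT, a log2 ratio of -1.25 (-1.94 to -0.62). Cd160 (chromosome 3, 96798763 to 96829351), a receptor of HVEM, had 28 UMIs (22.2 CPM) in PT-Cy and 121 (40.0 CPM) in alloBMT, a ratio of -0.85 (-1.4995 to -0.25). Cd101 (chromosome 3, 100992189 to 101029553), known in mice as a mark of terminally exhausted CD8 T cells, had 35 UMIs (27.7 CPM) in PT-Cy and 107 (35.3 CPM) in alloBMT. Its ratio of -0.35 (-0.95 to 0.21) could not be told from 0 at this depth.

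**Figure D1:**
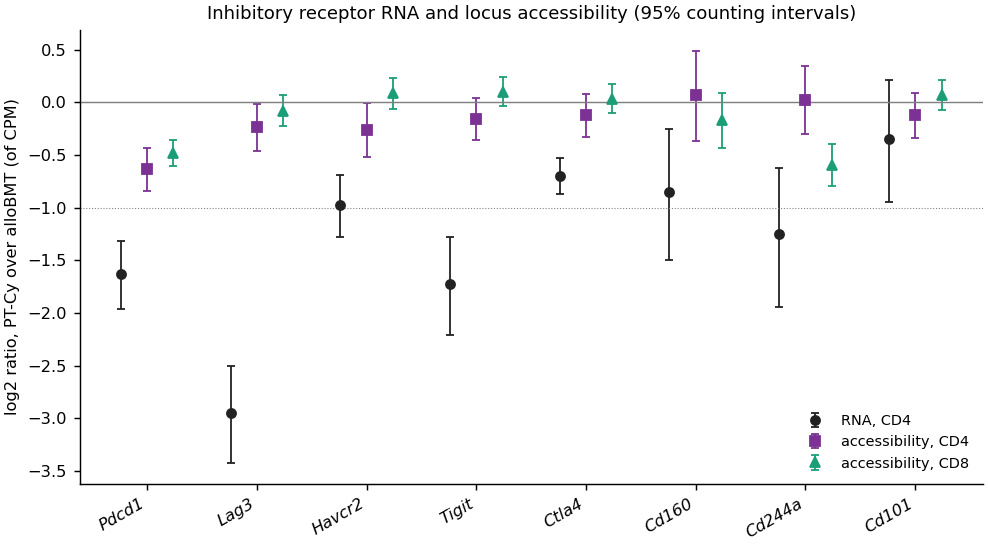
Log2 ratios of PT-Cy over alloBMT on the y axis for each receptor on the x axis: RNA in CD4 cells (circles), summed peak counts at the locus in CD4 cells (squares) and in CD8 cells (triangles), with 95% counting intervals. RNA ratios run from -2.94 (Lag3) to -0.35 (Cd101), while locus ratios stay between -0.63 and 0.10; the dotted line marks 2-fold lower.

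Across the deposited CD4 clusters the receptors followed different orders, given here for the 7 combinations of cluster and library with at least 30 cells. By point value 6 of the 8, all but Ctla4 and Cd101, were highest in alloBMT cluster 1, which held no PT-Cy cell, and for Pdcd1, Lag3 and Havcr2 the intervals separated that level from the next. Pdcd1 had 306 CPM there, against 233 in alloBMT cluster 3, and the counting intervals separate these neighbours. Next came alloBMT clusters 2 (192 CPM), 4 (155) and 0 (149.6), with no separated single step from cluster 3 down to cluster 0. Over the whole run, the intervals of cluster 3 (190 to 283 CPM) and cluster 0 (128 to 174) did not overlap. The step from alloBMT cluster 0 to PT-Cy cluster 2 (81.2) was separated, and so was the one from there to PT-Cy cluster 4 (14.2, from 2 UMIs). Lag3 stood at 426 CPM in alloBMT cluster 1 and 254 in cluster 3, at 107 to 155 in the other alloBMT clusters, and at 34.4 and 21.4 in PT-Cy clusters 2 and 4, with the intervals separating every alloBMT cluster from PT-Cy cluster 2. Havcr2 had 318 CPM in alloBMT cluster 1 and 181 in cluster 3, each separated from the level below it. Among the remaining 5 levels, from 35.6 to 101.6 CPM, no neighbours in this order were separated.

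Cluster 1 held 37.5% of all alloBMT UMIs. It held 51.3% of the Pdcd1 UMIs of alloBMT (47.5 to 55.2), 60.9% of those of Lag3, 63.2% of Havcr2 and 58.4% of Cd244a, but 31.0% of those of Ctla4. In PT-Cy cluster 2 held 82.8% of all UMIs, 93.4% of those of Pdcd1 (86.2 to 97.5), 83.7% of those of Lag3 and 72.9% of the summed receptors.

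Ctla4 had another order. Its levels were highest in cluster 4 of both libraries, at 862 CPM (715 to 1030) in PT-Cy and 1303 (1113 to 1515) in alloBMT. Next came alloBMT clusters 0, 3, 1 and 2, at 458, 405, 369 and 342 CPM, of which no neighbours were separated, and PT-Cy cluster 2 was lowest with 194. Farther apart in this order, alloBMT clusters 0 (419 to 499 CPM) and 1 (334 to 406) had intervals that did not overlap. Cluster 4 held 34.9% of the Ctla4 UMIs of PT-Cy and 12.5% of those of alloBMT. Tigit ran from 99.4 to 140.2 CPM over the alloBMT clusters and had 34.4 and 42.7 in PT-Cy clusters 2 and 4. Of the steps between neighbours in its order, the one between the libraries was the only separated one. Cd160 and Cd101 showed no separated neighbours, and neither did Cd244a, with 70.5 CPM in alloBMT cluster 1 and 16.0 to 38.8 elsewhere. Beyond neighbours, the Cd244a interval of alloBMT cluster 1 (55.9 to 87.8 CPM) lay above that of alloBMT cluster 0 (up to 40.8). It also lay above those of alloBMT cluster 2 (up to 46.9, from 3 UMIs) and PT-Cy cluster 2 (up to 29.5). It overlapped those of alloBMT clusters 3 and 4 and of PT-Cy cluster 4.

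**Figure D2:**
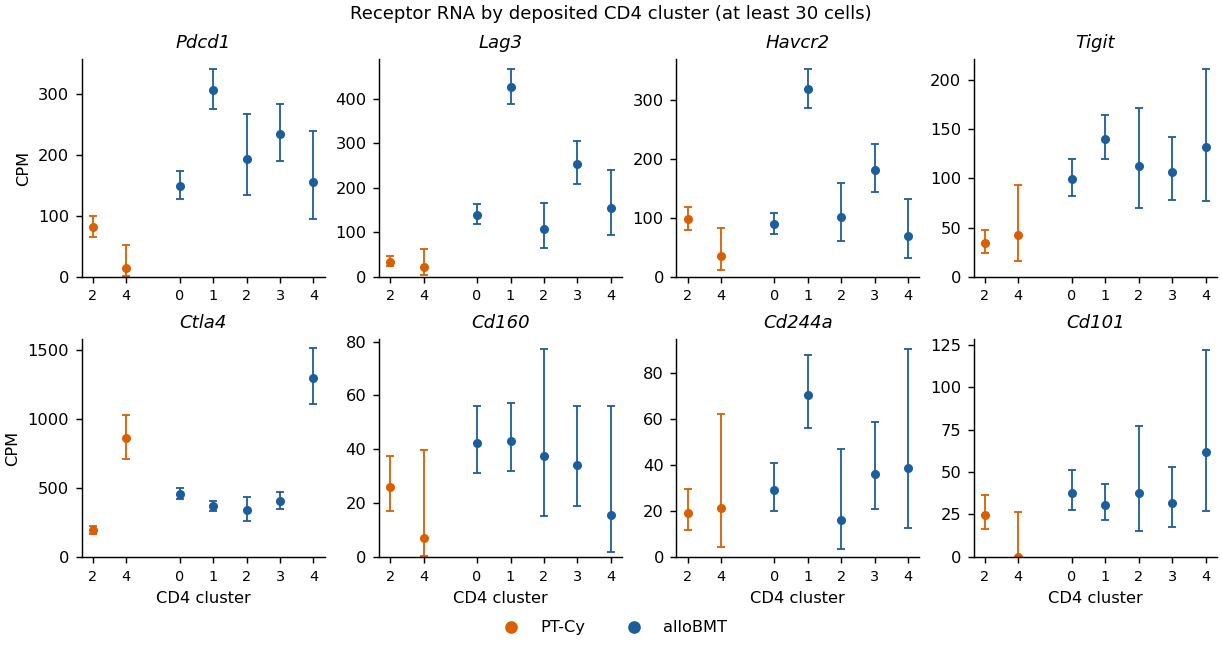
RNA level (CPM, y axis, each panel with its own scale) of the 8 receptors by deposited CD4 cluster (x axis) in PT-Cy and alloBMT, for groups of at least 30 cells, with 95% Poisson intervals. Pdcd1, Lag3 and Havcr2 are highest in alloBMT cluster 1 beyond counting error, as Tigit, Cd160 and Cd244a are by point value, and Ctla4 is highest in cluster 4 of both libraries.

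Inside cluster 2, whose cells divide in both libraries (Mki67, a marker of cycling cells, 821 CPM in PT-Cy and 866 in alloBMT), the summed receptors were lower in PT-Cy by a log2 ratio of -0.89 (-1.14 to -0.63). Tigit had 36 UMIs (34.4 CPM) in PT-Cy and 21 UMIs (112 CPM) in alloBMT, a ratio of -1.71 (-2.52 to -0.86). Lag3 had -1.64 (-2.46 to -0.77), Pdcd1 -1.24 (-1.82 to -0.64) and Ctla4 -0.82 (-1.23 to -0.39). Havcr2 stood apart here, with 97.4 CPM in PT-Cy and 102 in alloBMT, a ratio of -0.060 (-0.78 to 0.73). Cd160, Cd244a and Cd101 rested on 3 to 7 alloBMT UMIs each, and their intervals reached 0. The Cd244a value, 0.25 (-1.501 to 2.65), had the opposite sign to that of the whole set.

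Inside cluster 4, the Foxp3-rich cluster, the summed receptors had 1004 CPM in PT-Cy and 1931 in alloBMT, a log2 ratio of -0.94 (-1.25 to -0.64). Ctla4 accounted for 121 of 141 PT-Cy receptor UMIs and 168 of 249 alloBMT ones, with a ratio of -0.60 (-0.95 to -0.25). Pdcd1 had 2 UMIs in PT-Cy and 20 in alloBMT (-3.44, -6.59 to -1.40), and Lag3 3 and 20 (-2.86, -5.25 to -1.11). Cd101 had 0 UMIs in PT-Cy and 8 in alloBMT. The PT-Cy cells of cluster 4 also had more Mki67, at 555 CPM against 147 in alloBMT, so the libraries differed in dividing cells there. In cells without a UMI of 5 division markers, of which PT-Cy had 19 and alloBMT 402, the summed ratio was -1.24 (-1.79 to -0.74) and that of Ctla4 was -0.22 (-0.92 to 0.41).

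Shares of cells with a receptor UMI were compared after every cell had been thinned to 1981 UMIs, which kept 259 PT-Cy and 830 alloBMT cells and left out 25 and 96. Lag3 was found in 6.95% of PT-Cy cells (4.17 to 10.8) and 33.6% of alloBMT cells (30.4 to 36.9). Pdcd1 was found in 10.8% and 34.1%, Tigit in 5.79% and 18.8%, Havcr2 in 13.5% and 26.9%, and Ctla4 in 28.2% and 48.3% of PT-Cy and alloBMT cells. For these 5 genes the intervals of the libraries did not overlap. Cd160 was found in 3.09% of PT-Cy and 6.99% of alloBMT cells, Cd244a in 2.70% and 7.23%, and Cd101 in 3.86% and 5.66%. Unthinned, the shares for Pdcd1 were 21.1% and 45.4%, and for Lag3 13.0% and 45.1%.

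RNA of other cells was found in more PT-Cy cells. After thinning, Hbb-bs, a haemoglobin chain that T cells lack, was found in 51.0% of PT-Cy cells and 21.1% of alloBMT cells, and the neutrophil gene S100a9 in 6.56% and 2.41%. No cell type without the receptors was in the RNA counts used here, so the background of the receptor genes themselves was not measured, and the PT-Cy shares of Tigit, Cd160, Cd244a and Cd101 lie below that of S100a9.

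Detection of several receptors in 1 cell was much less frequent in PT-Cy. UMIs of at least 2 of the 8 receptors were found in 16.6% of PT-Cy cells (12.3 to 21.7) and 57.0% of alloBMT cells (53.5 to 60.4), and of at least 3 in 1.54% (0.42 to 3.91) and 29.3% (26.2 to 32.5). At least 4 were found in 0 of 259 PT-Cy cells, which allows a share of up to 1.16% by the limit of 3 cells set for a count of 0, and in 9.28% of alloBMT cells. The mean number of receptors per cell was 0.749 in PT-Cy and 1.82 in alloBMT. Without thinning, 38.4% of PT-Cy cells and 70.7% of alloBMT cells had at least 2.

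The difference held within clusters 2 and 4, which had at least 20 cells of each library. Clusters 0 and 3 had 4 and 11 PT-Cy cells, too few for these shares to be read. In cluster 2, at least 2 receptors were found in 16.7% of PT-Cy cells (12.0 to 22.3) and 48.7% of alloBMT cells (32.4 to 65.2). In cluster 4 the shares were 10.3% (2.19 to 27.4) and 61.3% (42.2 to 78.2), from 29 PT-Cy and 31 alloBMT cells. Among alloBMT clusters, cluster 1 had the highest share at 69.7% (64.1 to 74.8) and cluster 0 the lowest at 44.6% (39.2 to 50.2), with cluster 3 at 60.2%.

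**Figure D3:**
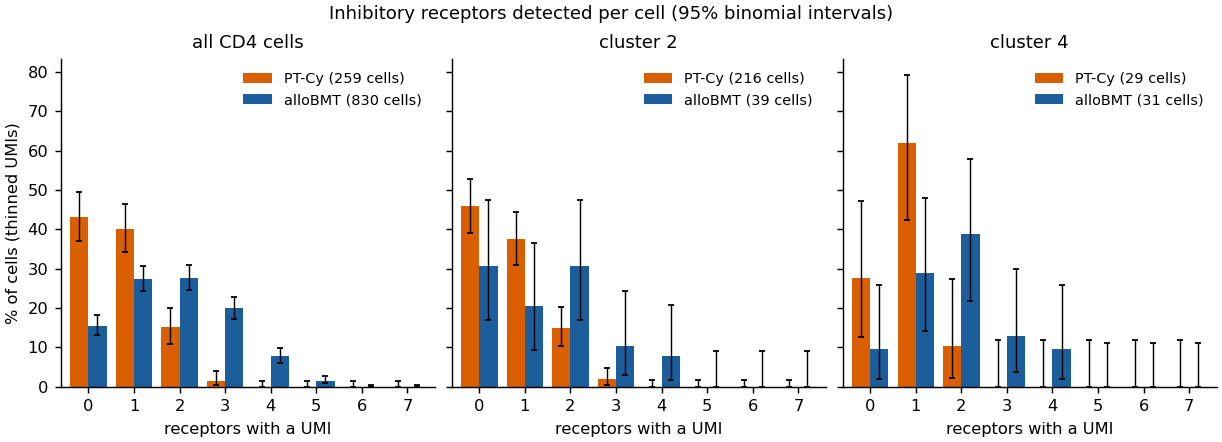
Percent of CD4 cells (y axis) by number of the 8 receptors with a UMI (x axis) after thinning to 1981 UMIs, in PT-Cy and alloBMT, for all cells and for clusters 2 and 4, with exact 95% binomial intervals. PT-Cy cells have at most 3 receptors and mostly 0 or 1, while alloBMT cells extend to 5.

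Which receptors met in the same cell was read by setting the number of cells with both beside the product of their shares. Of the 28 pairs, 25 had a product of at least 5 cells in alloBMT, and 3 of these had an interval above 1. Pdcd1 and Lag3 met in 130 cells where the product gives 95.1, a ratio of 1.37 (1.14 to 1.62). Lag3 and Havcr2 met in 103 cells against 74.96 (1.37, 1.12 to 1.67), and Pdcd1 and Havcr2 in 97 against 76.0 (1.28, 1.03 to 1.56). Within alloBMT clusters 0, 1 and 3, taken singly, none of the 15, 24 and 10 pairs with a product of at least 5 cells had an interval above 1. The medians were 1.11, 1.03 and 1.049, against 1.09 over all alloBMT cells. Clusters hold fewer cells, so intervals are wider there and do not show that such pairs are absent. In clusters 0, 1 and 3, Pdcd1 and Lag3 had ratios of 1.47, 1.13 and 1.34. Lag3 and Havcr2 had 1.29, 1.12 and 1.06, and Pdcd1 and Havcr2 0.97, 1.15 and 1.16. In PT-Cy 3 pairs reached a product of 5 cells, with ratios from 0.591 to 0.912 and intervals that held 1.

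The alloBMT cells with 3 or more receptors (243 cells) were set beside those with 0 or 1 (357 cells) for other genes, on the thinned counts. The division itself used the receptors, so those are left out, and of the cells with many receptors 55.6% lay in cluster 1, against 25.5% of those with few. The neutrophil gene S100a9 had 15 UMIs (31.2 CPM) in the cells with many receptors and 5 (7.07 CPM) in those with few (2.14, 0.61 to 3.95), and its part in the values below was not tested. The genes named here were chosen after their values were seen. Tox, a factor needed for the exhausted state, had 7192 CPM in the cells with many receptors and 4901 in those with few (log2 ratio 0.55, 0.48 to 0.62). Tnfrsf9, a costimulatory receptor induced by activation, had 0.99 (0.59 to 1.40), Ikzf2, the factor Helios, 0.74 (0.51 to 0.96), and Cblb, a ubiquitin ligase that restrains T cell activation, 0.72 (0.61 to 0.83). Lower in the cells with many receptors were Cd226, the activating counterpart of TIGIT for the same ligands, at -1.43 (-1.77 to -1.09), and Satb1, a chromatin organiser, at -1.52 (-2.21 to -0.88). Of 2672 genes with at least 100 thinned UMIs in these cells, 3.07% were 1.5-fold higher and 3.74% were 1.5-fold lower.

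Within cluster 1 alone, with 135 cells with many and 91 cells with few receptors, some of these differences were no longer seen. Tox had a log2 ratio of 0.046 (-0.052 to 0.14) there. Ikzf2 had 1.41 (0.94 to 1.92), Cd96 0.81 (0.31 to 1.34), Tnfrsf9 0.71 (0.16 to 1.28) and Cblb 0.30 (0.15 to 0.46). Tbx21, the factor T-bet, was lower at -1.29 (-2.25 to -0.37), as was Cd28 at -0.55 (-0.87 to -0.23). The intervals of Cd226 (-0.57), Satb1 (-1.21), Nr4a2 (-0.20) and Slamf1 (0.016) reached 0. Over all alloBMT clusters, cells with many receptors had more open chromatin at Pdcd1, by 0.29 (0.11 to 0.47), and at Havcr2, by 0.35 (0.11 to 0.60), while the intervals of the other 6 loci held 0. Within cluster 1 the intervals of 8 of 8 loci held 0, with Pdcd1 at -0.0095 (-0.25 to 0.23) and Havcr2 at 0.14 (-0.21 to 0.49).

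Genes with a pattern like a receptor were found by Pearson's correlation of log2(CPM + 10) over the 7 cluster and library groups, for the 5 receptors with the most UMIs. The groups share 2 libraries and differ in depth, so the values describe these 7 points. Closest to Pdcd1 were Btg3 (0.988), Ppip5k2 and Chd1l, closest to Lag3 were Pkd1l1 (0.995), Pitpnc1 and Rapgef1, and closest to Havcr2 were Lrrk1 (0.986), Prkdc and Kat7. Tigit went with Il10 (0.982), the gene of a suppressive cytokine, and with Mkrn2 and Zdhhc18, and Ctla4 with Ppargc1b (0.976), Lnx2 and 1810058I24Rik. Among the receptors, Pdcd1 correlated with Lag3 at 0.906 and with Ctla4 at -0.286.

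Other genes of the pathway went in both directions. The counts below stand beside 2.88% of 6285 measured genes that were 2-fold lower in PT-Cy and 4.93% that were 2-fold higher. Of 16 other inhibitory receptors 10 were measured, 1 of them 2-fold or more lower in PT-Cy and 3 higher, and their median was 0.055, whose sign turns when TMM factors over all genes are used. Klrc1, which encodes the receptor NKG2A, had 11.9 CPM in PT-Cy and 62.7 in alloBMT (-2.40). Klrg1, a cadherin receptor of effector cells, had 74.4 CPM in PT-Cy and 18.5 in alloBMT (2.01), Btla, another receptor of HVEM, 101 and 40.0 CPM (1.34), and Pecam1 150.3 and 62.4 CPM (1.27). Of 12 costimulatory receptors 11 were measured, with 0 past 2-fold either way and a median of 0.45. Icos had 0.96, Tnfrsf18 (GITR) 0.92, Slamf6 0.75 and Cd27 -0.80. Cd226 had 0.45 (0.30 to 0.59) where Tigit had -1.73, and Cd28 -0.23 (-0.34 to -0.13) where Ctla4 had -0.70.

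Ligand genes were measured in the same T cells for 7 of 13, with a median of 0.21. Cd80, a ligand of CTLA-4 and CD28, had 104 CPM in PT-Cy and 50.9 in alloBMT (1.03), Lgals3, a ligand of LAG3, 0.94, Cd48, the ligand of 2B4, 0.63 and Hmgb1, a ligand of TIM3, 0.21, while Cd274, the gene of PD-L1, had 0.087 (-0.24 to 0.41). Of the 16 genes of signalling below the receptors, 3 were lower in PT-Cy by 2-fold or more and 2 were higher, and the median was -0.32. Lower were Cblb (814 CPM in PT-Cy and 2363 in alloBMT, -1.54), the adaptor gene Sh2d2a (-1.24) and the kinase gene Fyn (-1.20), and higher were Socs1 (1.26), an inhibitor of cytokine signalling, and Ptpn6 (1.03), the gene of SHP-1. Ptpn11, the gene of SHP-2 that PD1 recruits, had -0.51 (-0.83 to -0.20). Of 24 transcription factor genes known to act on these receptors or on exhaustion, 22 were measured, 5 were 2-fold lower and 3 were 2-fold higher, with a median of -0.19. Nr4a2 had -2.28 and Tox -1.59, and Satb1 had 2.08 and Tcf7, the factor of stem-like T cells, 1.79. Ikzf2, which was higher in alloBMT cells with many receptors, was also higher in PT-Cy, the library with less receptor RNA. It had 1564 CPM in PT-Cy and 638 in alloBMT (1.29, 1.20 to 1.38). Over all 6285 measured genes, 2.88% were 2-fold lower and 4.93% were 2-fold higher. These lists were chosen with earlier results of these data known.

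By log2 ratio, chromatin at the receptor loci differed far less than the RNA. The measures are unlike, since a locus sums all peaks within 10 kb, some of them near other genes. Counts of the 90 peaks summed to 932 CPM in PT-Cy and 1096 in alloBMT CD4 cells, a log2 ratio of -0.23 (-0.32 to -0.15), and to 1098 and 1193 CPM in CD8 cells, -0.12 (-0.17 to -0.07). Of the 8 loci 6 were below 0 in CD4 and 4 in CD8, with medians of -0.14 and -0.021, beside 50.2% of 14384 loci of protein-coding genes in CD4 and 52.1% of 15745 in CD8 that were below 0, with medians of -0.0012 and -0.0084. TMM factors over all peaks would shift the CD4 ratios by -0.20 and the CD8 ratios by -0.088, which puts 8 of 8 and 7 of 8 loci below 0, beside 81.8% and 71.6% of all loci under the same shift. The fraction of fragments in peaks was also lower in PT-Cy, with a median of 58.3% against 66.6% in CD4 and 58.5% against 65.4% in CD8, and its part in these values was not tested.

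Pdcd1 was the locus that stood lower in PT-Cy in both sets. Its 10 peaks had 223 counts (145 CPM) in PT-Cy and 1568 counts (225 CPM) in alloBMT CD4 cells, a log2 ratio of -0.63 (-0.84 to -0.43), and 600 counts (192 CPM) and 4452 counts (268 CPM) in CD8 cells, -0.48 (-0.60 to -0.36). Without the peak that also lies near Neu4, these were -0.96 in CD4 and -0.75 in CD8. Lag3, with the largest RNA difference, had -0.23 (-0.46 to -0.02) in CD4 and -0.077 (-0.22 to 0.07) in CD8. That value depends on neighbours, since the window reaches Ptms: the peaks on the gene body gave -0.62 (-0.996 to -0.26) in CD4, while the peaks that lie near no other gene gave 0.25 (-0.21 to 0.68).

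Havcr2 had -0.26 (-0.52 to -0.01) in CD4 and 0.087 (-0.06 to 0.23) in CD8. The intervals of Tigit (-0.16), Ctla4 (-0.12), Cd160 (0.072) and Cd101 (-0.12) in CD4 held 0. With peaks on the gene body alone, Ctla4 had -0.39 (-0.68 to -0.10) in CD4. Cd244a went apart between the sets, with 64.3 CPM in PT-Cy and 63.2 in alloBMT CD4 cells (0.025, -0.30 to 0.34) and 75.4 and 113.6 CPM in CD8 cells (-0.59, -0.79 to -0.40).

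Between the sets, most loci were less open in CD4 than in CD8 cells or level. In alloBMT, Cd244a had 63.2 CPM in CD4 and 113.6 in CD8 (-0.84, -0.998 to -0.69), Cd160 -0.49 (-0.70 to -0.29), Pdcd1 -0.25 and Havcr2 -0.22, while Tigit was higher in CD4 at 0.17 (0.07 to 0.27). In PT-Cy the largest difference was at Havcr2, with 97.5 CPM in CD4 and 144.0 in CD8 (-0.56, -0.84 to -0.29), and Pdcd1 had -0.41 (-0.64 to -0.19).

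Single peaks were read where both libraries together had at least 100 counts in a set. In CD4 29 of the 90 peaks reached this, of which 4 were less open in PT-Cy by 2-fold or more and 0 more open, beside 3.82% and 0.751% of 19971 measured peaks. In CD8 54 reached it, of which 4 were less open and 0 more open, beside 3.27% and 1.01% of 35872. Pdcd1 supplied 3 of the 4 in CD4 and 2 of the 4 in CD8, and Lag3, Cd160 and Cd244a the others.

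At Pdcd1, 6 of 6 measured peaks in CD4 and 9 of 10 in CD8 had ratios below 0. The peak within the gene on chromosome 1 from 94041961 to 94043056, 10.0 kb from the start site, had 24 counts in PT-Cy and 257 in alloBMT CD4 cells (-1.24, -1.91 to -0.63) and -0.53 in CD8. Upstream, the peak from 94053388 to 94053865, 1.07 kb before the start site, had -1.07 (-1.91 to -0.32) in CD4 and -0.48 in CD8, and the peak from 94055576 to 94056301 had -1.06 in CD4 and -0.97 (-1.41 to -0.56) in CD8. The start-site peak from 94052229 to 94052779, which holds the 2 NFAT matches shown above, had -0.75 (-1.43 to -0.13) in CD4 and -0.35 (-0.74 to 0.02) in CD8. In CD8 the lowest were within the gene, from 94047992 to 94048339 at -1.38 (-2.04 to -0.78) and from 94040390 to 94040735 at -1.22. The peak with the most counts, from 94034549 to 94036333 near Neu4, did not differ beyond counting error, at -0.046 in CD4 and 0.13 in CD8.

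At Ctla4 the start-site peak on chromosome 1 from 60908569 to 60909250 had 31 counts in PT-Cy and 251 in alloBMT CD4 cells (-0.84, -1.43 to -0.30), and 104 and 504 in CD8 cells (0.14, -0.18 to 0.44). At Cd244a the start-site peak from 171558614 to 171559366 had 29 counts in PT-Cy and 335 in alloBMT CD8 cells (-1.12, -1.72 to -0.57). In CD4 it had 13 and 63 counts (-0.097, -1.08 to 0.78), together below the minimum of 100 for a peak to be read. The next peak into the gene, from 171561162 to 171562147, had -0.43 (-1.24 to 0.30) in CD4 and -0.91 (-1.30 to -0.54) in CD8. At these Cd244a peaks the CD4 and CD8 intervals overlapped, so a difference between the sets is not shown there. At the Ctla4 peak they did not overlap, though the CD8 interval held 0, and the difference between the sets was not tested. The start-site peak of Tigit on chromosome 16 from 43663731 to 43665166 had -0.18 in both, with intervals that held 0.

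Of the other loci, Lag3 had 1 peak past 2-fold in CD4, on chromosome 6 from 124911383 to 124912207, with 18 counts in PT-Cy and 181 in alloBMT (-1.15, -1.94 to -0.45) and -0.33 in CD8. Its peak with the most counts, from 124917032 to 124918544 near Ptms, had 0.0052 in CD4 and -0.028 in CD8. Cd160 had 1 peak past 2-fold in CD8, on chromosome 3 from 96832936 to 96833712 near Pdzk1, with 12 counts in PT-Cy and 142 in alloBMT (-1.15). At Havcr2 the upstream peak on chromosome 11 from 46446936 to 46448522, also near Med7, had -0.36 (-0.97 to 0.21) in CD4 and 0.37 (0.05 to 0.67) in CD8. The peak of Cd101 with the most counts, on chromosome 3 from 101011795 to 101013887, had -0.38 (-0.75 to -0.03) in CD4 and -0.094 in CD8.

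**Figure D4:**
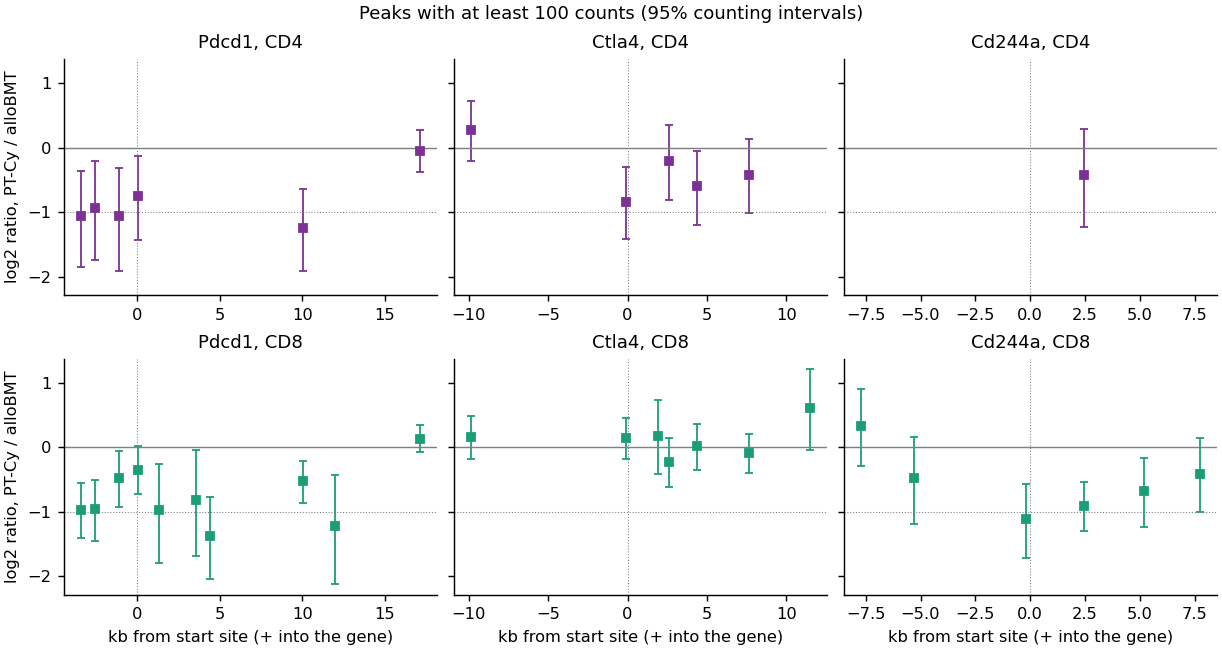
Log2 ratio of PT-Cy over alloBMT (y axis) of each peak with at least 100 counts, by distance of its centre from the start site in kb (x axis, positive into the gene), for Pdcd1, Ctla4 and Cd244a in CD4 (top) and CD8 (bottom), with 95% counting intervals. Peaks at Pdcd1 lie below 0 in both sets apart from the one farthest downstream in CD8, the start-site peak of Ctla4 is below 0 in CD4, and that of Cd244a in CD8.

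Over the deposited clusters with at least 20 cells, Pdcd1 accessibility in CD4 was highest in alloBMT clusters 1 (264 CPM) and 3 (254) and lowest in cluster 4, at 100.1 CPM in PT-Cy and 127 in alloBMT. Within CD4 cluster 2 it had 148 CPM in PT-Cy and 213 in alloBMT, a log2 ratio of -0.53 (-0.88 to -0.17), the only 1 of the 8 loci whose interval there lay apart from 0. Ctla4 was most open in alloBMT cluster 4 (241 CPM), the cluster with the most Ctla4 RNA, against 173 in PT-Cy cluster 4.

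In CD8 cells, clusters 1, 2, 5 and 6 had at least 20 cells of both libraries. Pdcd1 was lower in PT-Cy in cluster 6, at 146 CPM against 229.9 in alloBMT (-0.65, -1.01 to -0.30), and had intervals that held 0 in clusters 1 (-0.19), 2 (-0.14) and 5 (0.31). Cd244a was lower in cluster 2, at 79.8 CPM in PT-Cy against 113.8 in alloBMT (-0.51, -0.84 to -0.19), and its intervals held 0 in clusters 1, 5 and 6. Of the CD8 clusters Cd244a was most open in alloBMT cluster 0 (143.8 CPM), which held no PT-Cy cell among 506 cells. The part of cluster make-up in the whole-set ratios was not tested beyond these values.

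**Figure D5:**
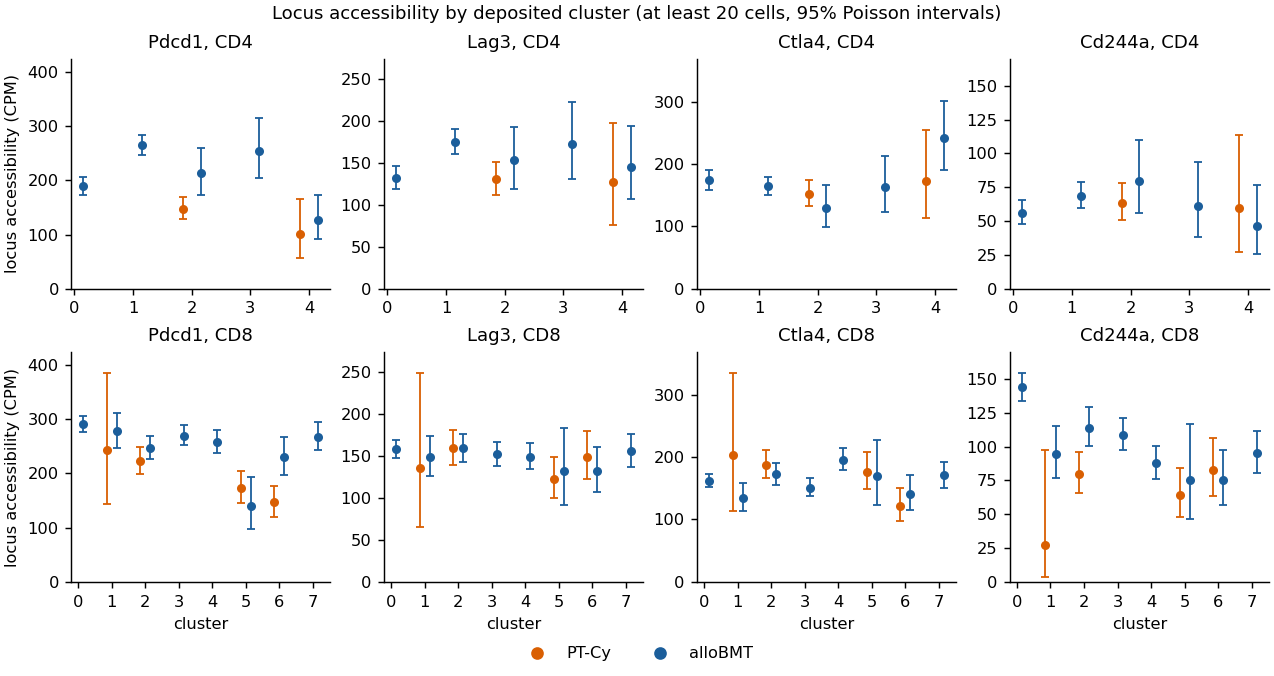
Locus accessibility (CPM of counts in peaks, y axis) of Pdcd1, Lag3, Ctla4 and Cd244a by deposited cluster (x axis) in CD4 (top) and CD8 (bottom), in PT-Cy and alloBMT, for groups of at least 20 cells, with 95% Poisson intervals. Pdcd1 in CD4 is highest in alloBMT clusters 1 and 3, and Cd244a in CD8 in alloBMT cluster 0.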

How the data were processed

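RNA and ATAC libraries of 2 groups, PT-Cy and alloBMT, were grouped by their labels. The submitters' processing notes list Cell Ranger ARC 1.0.1, MACS2 without a version, and GRCh38, a human build, though gene names are mouse. Peak coordinates are as deposited, and gene positions are those of RefSeq for GRCm38.p6; 7 of 8 promoter stretches of the receptors lay in a deposited peak. The deposited values are raw counts, whole numbers for each cell by gene or peak that the authors did not normalize, per the file headers and values. The authors' per-cell table gives clusters and the fraction of fragments in peaks (deposited as a fraction, printed as a percent); 52 of its 58 columns were not used. How the authors filtered cells and treated doublets was not given in the sources; the lowest totals were 1017 UMIs and 1003 ATAC counts. No doublet caller was run, and as an alternative the deepest 5% of cells of each library were left out. The libraries shared 2 cell barcodes in the ATAC counts and 0 in the RNA counts.

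Counts were summed per library and set and divided by their total (CPM). Log2 ratios carry exact conditional binomial (Clopper-Pearson) 95% intervals, shares exact binomial and levels exact Poisson ones, all for counting error. With 1 library per group no test was run. Called genes or peaks have at least 100 counts over both libraries and a 2-fold difference, and a 0 is set to 3 where a fold needs it. Thinning drew UMIs without replacement to the 10th percentile. Named genes were the 8 receptors, up to 4 of each list with the largest ratio, Tox, Tcf7, Mki67, Foxp3, Cd8b1, S100a9, Hbb-bs and, for 5 receptors, the 3 genes most alike; named peaks were the one with the most counts and the 2 with the largest ratios per set. Genes outside this rule were chosen after their values were seen. The receptors and lists were chosen with earlier results of these data known. The ratio and thinning were tested on simulated counts. As alternatives, library totals were scaled by TMM (edgeR 4.0.16) or by median ratios (DESeq2 1.42.0, in R 4.3.3), and minimums, windows, depths and cell subsets were varied. Scripts ran in Python 3.11.15 with pandas 2.3.3, scipy 1.17.1 and numpy 2.4.6.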

Additional observations from a re-analysis of the deposited data

Results flagged for a closer look

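At 2 places the chromatin ratios of the CD4 and CD8 sets lay on opposite sides of 0 with counting intervals that did not overlap. In each case 1 of the 2 intervals held 0, so an opposite direction is not shown. With 1 library per group the difference between the sets was not tested. The Cd244a locus had a log2 ratio of PT-Cy over alloBMT of 0.025 (-0.30 to 0.34) in CD4 and -0.59 (-0.79 to -0.40) in CD8; its CD4 value turns negative with TMM factors over all peaks. The start-site peak of Ctla4, on chromosome 1 from 60908569 to 60909250, had -0.84 (-1.43 to -0.30) in CD4 and 0.14 (-0.18 to 0.44) in CD8.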

How the results depend on the processing

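The log2 ratio of summed receptor RNA, -1.23 as reported, stayed below 0 in each alternative run. It was -1.36 with TMM factors over all genes, -1.37 without cells with a myeloid, B or NK cell marker, of which 283 of 414 alloBMT cells left out had Eomes alone, and -1.30 without cells with such a marker other than Eomes (all 3 chosen after seeing the data). It was -1.58 without Ctla4, -0.89 within cluster 2 and -0.94 within cluster 4. The 4 receptors at least 2-fold lower became 5, with Havcr2, under each of 3 other scalings. At 1.5-fold they became 7, beside 597 of 6285 measured genes that were 1.5-fold lower and 783 that were higher. Without cells with a marker other than Eomes they were 6 of 7 measured. In cluster 2 they were 1 of 3 measured and in cluster 4 they were 0 of 1, where fewer UMIs leave fewer genes measured. For these cell subsets the share over all genes was not computed. The share of cells with at least 2 receptors was 38.4% in PT-Cy and 70.7% in alloBMT without thinning, 23.1% and 64.2% thinned to 2355 UMIs, 10.3% and 61.3% in cluster 4, and 1.54% and 29.3% for at least 3 receptors. In alloBMT it was 48.7% in cluster 2, 52.4% without dividing cells and 52.6% without cells with those markers. Of 32 shares of single receptors under other depths 20 left the interval of the thinned value. Summed locus accessibility was -0.43 in CD4 and -0.21 in CD8 with TMM factors over all peaks. With a minimum of 20 counts, 7 of 68 receptor peaks were less open and 2 more open in CD4, and 6 of 77 less and 3 more open in CD8. Over all peaks that minimum gave 5750 (10.2%) of 56142 less and 3603 (6.42%) more open in CD4, and 7439 (9.02%) of 82483 less and 4565 (5.53%) more open in CD8. At 1.5-fold, 9 of 29 receptor peaks were less and 0 more open in CD4, beside 10.4% and 4.18% of all peaks, and 10 of 54 less and 3 more open in CD8, beside 9.94% and 5.69%. Of 10122 genes with 20 UMIs, 474 were lower and 912 higher. Of 206 values of single receptors, 2 turned sign from a ratio whose interval lay apart from 0: Cd244a RNA within cluster 2 (0.25, from 3 alloBMT UMIs) and the Lag3 locus in CD4 without peaks near another gene (0.25); the cause was not tested. No paired analysis was possible because each group has 1 library per assay, and for the same reason no replicate could be left out. Depth limits Cd160, Cd244a and Cd101 within clusters, and 29 of 90 receptor peaks in CD4 had enough counts to be read.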
